A study of Caenorhabditis elegans with 2 samples.

Results

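The genes described here encode the subunits of the proteasome, the protease that degrades proteins tagged with ubiquitin. They were chosen by name: every protein-coding gene of the WBcel235 gene models called pas, pbs, rpt or rpn followed by a number, which gave 33 genes of 19973 on the nuclear chromosomes. The data are peak lists from chromatin immunoprecipitation followed by sequencing (ChIP-seq) of whole Caenorhabditis elegans young adults, 65 hours old and grown from starved L1 larvae. Both samples, biological replicates 1 and 2, were of strain RW12215, in which CRISPR had placed TY1, EGFP and 3xFLAG tags on mcd-1 at its own locus on chromosome II. DNA bound by the tagged zinc finger protein MCD-1 was recovered with an antibody against GFP. All animals carried the tag and there was 1 group, so the lists show where the protein was recovered and hold no comparison of conditions. Whole animals were used, so a signal is an average over all tissues, and binding in fewer cells cannot be told apart from weaker binding in each cell.

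The proteasome has a hollow core particle built of stacked rings. The alpha subunits, from pas genes, form the outer rings that gate entry, and the beta subunits, from pbs genes, form the inner rings that hold the proteolytic sites. A regulatory particle caps the core. Its base holds a ring of ATPases, from rpt genes, which unfold substrates, together with scaffold and ubiquitin receptor subunits. Its lid, from the other rpn genes, removes the ubiquitin chain. In C. elegans the transcription factor SKN-1A raises the expression of proteasome genes when proteasome function is impaired. The members comprised 14 core genes (7 pas and 7 pbs) and 19 regulatory genes (6 rpt, 12 rpn subunits and rpn-6.2, a paralogue of rpn-6.1).

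A gene was counted as having a promoter summit when the summit of a peak in the authors' conservative list lay from 1000 bp upstream to 200 bp downstream of its annotated 5′ end. That list held 3903 peaks that passed an irreproducible discovery rate (IDR) of 0.01 between the replicates. Signal values are the authors' own. For each peak, each replicate's value was taken from the overlapping peak of its own ranked list and divided by that replicate's median over the conservative peaks, which was 87.3 in replicate 1 and 66.7 in replicate 2. These multiples are given as mean ± SD (n = 2). Negative positions lie upstream of the 5′ end, and coordinates are those of ce11, counted from 1.

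Stretches of 50 bases on each side of the summit are shown for the strongest promoter peaks of each particle on chromosomes II to X. The letters GTCAT, which read ATGAC on the other strand, are in capitals. They are a form of the core of the sequence that SKN-1 binds, and were more frequent at member summits than at promoter summits in general. ATCAT, the other form of the core, is not in capitals and occurs in the stretches of pas-1 and rpt-2. Each stretch reads 5′ to 3′ on the strand of the member gene, towards its start.
pbs-1 (chrIV:1709903-1710003, minus strand): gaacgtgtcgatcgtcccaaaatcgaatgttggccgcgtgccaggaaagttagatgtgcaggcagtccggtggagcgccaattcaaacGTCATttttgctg
pas-1 (chrV:14423429-14423529, minus strand): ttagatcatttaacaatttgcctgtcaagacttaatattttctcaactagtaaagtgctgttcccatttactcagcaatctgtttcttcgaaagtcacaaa
rpn-3 (chrIII:8447108-8447208, plus strand): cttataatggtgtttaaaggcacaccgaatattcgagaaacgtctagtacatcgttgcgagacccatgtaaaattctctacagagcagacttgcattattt
rpt-2 (chrV:6017761-6017861, minus strand): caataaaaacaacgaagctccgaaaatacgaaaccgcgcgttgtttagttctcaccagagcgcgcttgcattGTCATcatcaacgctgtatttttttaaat
rpn-9 (chrII:11239130-11239230, minus strand): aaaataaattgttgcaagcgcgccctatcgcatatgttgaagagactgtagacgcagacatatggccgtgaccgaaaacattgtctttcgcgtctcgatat
rpn-2 (chrIII:6198795-6198895, plus strand): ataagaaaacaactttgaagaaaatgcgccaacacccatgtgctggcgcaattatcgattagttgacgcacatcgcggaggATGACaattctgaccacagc
rpt-4 (chrII:43777-43877, minus strand): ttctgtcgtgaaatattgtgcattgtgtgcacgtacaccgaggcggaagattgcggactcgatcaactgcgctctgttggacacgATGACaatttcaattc
The windows of rpn-2, shown because it holds the letters in capitals, and of rpt-4, at its inner start, were chosen after their values were seen. The sequence was RefSeq's WBcel235.

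Of the 33 proteasome genes, 18 had a promoter summit (54.5%), against 2636 of all 19973 protein-coding genes (13.2%). The core particle had 10 of 14 (71.4%) and the regulatory particle 8 of 19 (42.1%). By role, the beta ring had 6 of 7, the alpha ring 4 of 7, the base ATPases 3 of 6, the other base subunits 1 of 4 and the lid 4 of 8, while rpn-6.2 had none. Core genes with a summit were more numerous but their peaks were modest. The strongest summit of each core gene lay between 0.475 and 3.09 times the median peak, with a median of 1.16. Peaks at regulatory genes ranged from 0.578 to 15.6 times, with a median of 3.15. Over all genes with a promoter summit the median was 1.45. These medians leave out the genes without a summit. With every member counted by the strongest ranked summit in its window, the order was the reverse. The median was then 0.8859 times in the 14 core genes and 0.3735 times in the 19 regulatory genes. It was 0 over all protein-coding genes. Genes are not replicates of a condition, so the difference between the particles was not tested.

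The counts were also taken on other lists and rules. The pooled list gave 11 core and 9 regulatory genes (14.4% of all genes), the list of replicate 1 gave 11 and 9 (12.4% of all genes), and that of replicate 2 gave 7 and 8 (10.8% of all genes). Conservative peaks at or above the median signal gave 7 and 7 (9.01% of all genes). A window of 500 bp upstream gave 10 and 7 (10.7% of all genes), and any overlap of a peak with the window gave 10 and 8 (14% of all genes).

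**Figure D1:**
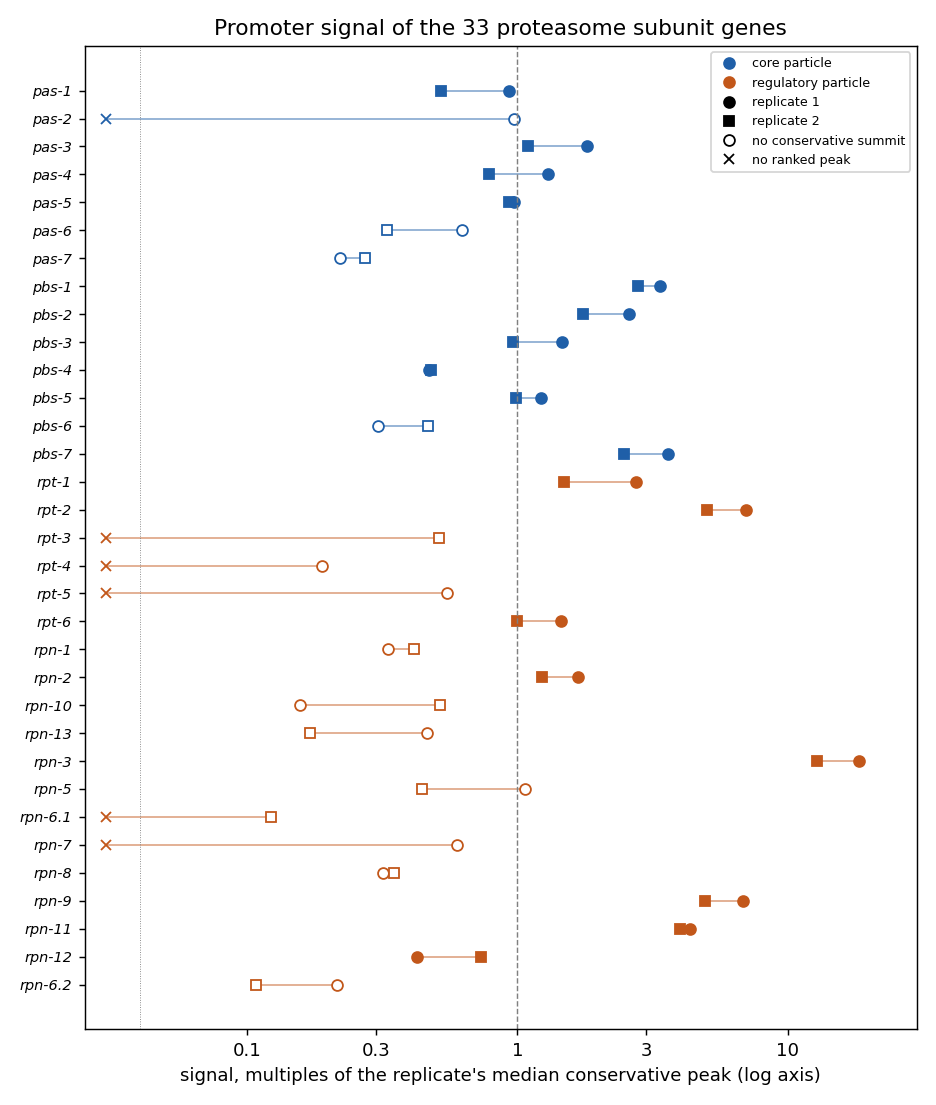
Signal at the promoter of each of the 33 proteasome genes, as multiples of each replicate's median conservative peak on a log axis, with circles for replicate 1 and squares for replicate 2, core genes in blue above regulatory genes in orange. Filled symbols are genes with a conservative promoter summit, open symbols give the strongest ranked peak in the window of the other genes, and crosses at the left edge mark a replicate with none; rpn-3 stands at 18.4 and 12.9, above every other member.

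In the core, more beta ring genes than alpha ring genes had a summit, 6 against 4. The gene of the caspase-like subunit, pbs-1 (WBGene00003947, chromosome IV, 1708814 to 1709745), had signals of 295 and 187 in replicates 1 and 2, or 3.38 and 2.79 times the median (mean 3.09 ± 0.411). Its peak spanned 1709809 to 1710085. Nearly the same level was found at pbs-7, a beta ring gene on chromosome I, with 3.61 and 2.49 times (3.05 ± 0.797). The order of this pair was not settled, since pbs-1 had the higher mean multiple and pbs-7 the higher signal in the conservative list (477 against 472 for pbs-1). The trypsin-like subunit gene pbs-2 followed, with 2.59 and 1.74 times (2.17 ± 0.595). Replicate ranges of pbs-1 and pbs-7 overlapped, as did those of pbs-7 and pbs-2, while both values of pbs-2 lay below both of pbs-1.

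The other beta genes were near or below the median peak. At pbs-3 the replicates gave 1.46 and 0.960 times (1.21 ± 0.352), with the summit in the annotated 3′ UTR of ulp-2, which ends 22 bp before pbs-3 on the same strand. The chymotrypsin-like subunit gene pbs-5 gave 1.23 and 0.989 times (1.11 ± 0.167). Its summit lay at 153 bp, inside a coding exon of the gene. The matched peak of replicate 2 had its summit at 224 bp, outside the window, and the strongest ranked summit of replicate 2 inside the window of pbs-5 gave 0.418 times. The gene with the lowest mean multiple was pbs-4, at 0.470 and 0.480 times (0.475 ± 0.00712), with an IDR of 0.00952 just inside the threshold. It was absent from the authors' pooled list and from each replicate's own list.

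The alpha ring genes with a summit lay close to the median peak. At pas-3 the multiples were 1.81 and 1.09 (1.45 ± 0.51), and at pas-4 they were 1.30 and 0.783 (1.04 ± 0.364). The summit of pas-5 at -297 bp gave 0.971 and 0.929 (0.950 ± 0.0296). A further summit at -910 bp of pas-5 was the shoulder of a stronger peak (signal 824) with its main summit at -1126 bp, outside the window. That shoulder fell in the snoRNA gene F25H2.15, and replicate 2 had no separate summit for it, so no multiple is given. At pas-1 a summit at -861 bp gave 0.935 and 0.522 (0.728 ± 0.292). It lay 175 bp upstream of rpoa-12, an RNA polymerase I subunit gene on the same strand, which ends 106 bp before pas-1. The other pas-1 summit, at 159 bp in a coding exon, gave 0.766 and 0.565 (0.666 ± 0.142).

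In the regulatory particle the highest value was at the lid gene rpn-3 and the lowest at the lid gene rpn-12. The gene rpn-3 (WBGene00004460, chromosome III, 8447353 to 8449346) had signals of 1604 and 859, or 18.4 and 12.9 times the median (15.6 ± 3.90). Its peak, 8446918 to 8447373, ranked 49 of the 3903. Another lid gene, rpn-9, gave 6.85 and 4.95 times (5.90 ± 1.35), at rank 256. The gene of the deubiquitinase that cuts the chain from the substrate, rpn-11, gave 4.35 and 4.01 times (4.18 ± 0.238), with its summit 6 bp upstream of the 5′ end. In contrast, rpn-12 was near the bottom of the conservative list, at 0.425 and 0.731 times (0.578 ± 0.216). Its summit at -854 bp lay in a coding exon of the divergent gene rad-23.

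The base genes with a summit spanned the middle of this range. The ATPase gene rpt-2 gave 7.04 and 5.05 times (6.04 ± 1.41), close to rpn-9 and within the replicate spread of it. The ATPase genes rpt-1 and rpt-6 gave 2.74 and 1.48 times (2.11 ± 0.891), and 1.45 and 0.999 times (1.23 ± 0.32). A weaker summit of rpt-6 at -775 bp gave 0.862 and 0.748 times (0.805 ± 0.0806). It was shared with the histone H3 gene his-72. The scaffold gene rpn-2 was the only non-ATPase base gene with a summit, at 1.68 and 1.24 times (1.46 ± 0.313).

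After scaling to its own median, replicate 1 was the higher at 16 of the 18 members with a summit, the exceptions being pbs-4 and rpn-12. The median ratio of replicate 1 to replicate 2 was 1.41 at these members. Over all genes with a promoter summit that ratio was 1.07, and replicate 1 was the higher at 60% of 2619. The SDs of the members therefore hold a difference that mostly runs 1 way, and its cause was not tested. In the replicates' own thresholded lists, 16 of the 18 members had a summit in that of replicate 1 and 15 in that of replicate 2, with 14 in both. As shares these were 88.9%, 83.3% and 77.8% of the members, close to the 84.0%, 78.1% and 72.1% of all genes with a summit.

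**Figure D2:**
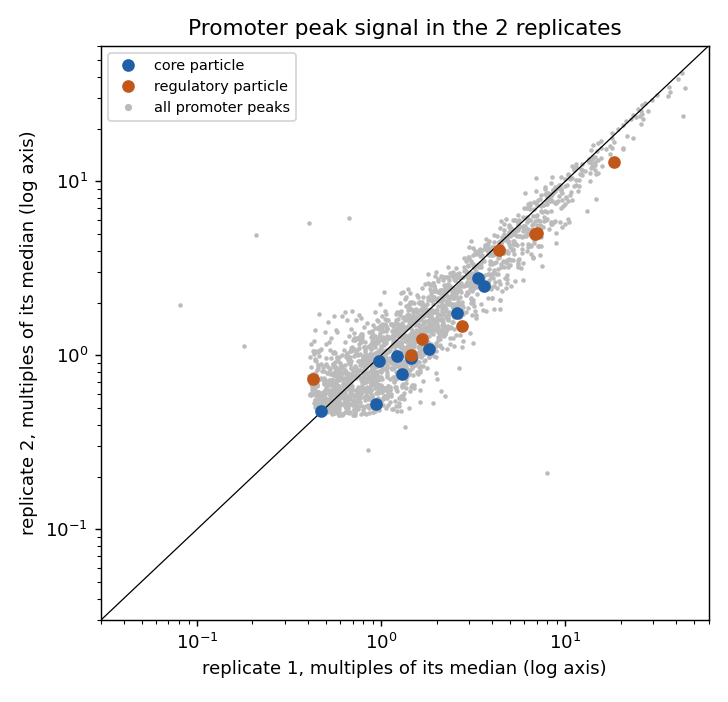
Signal of promoter peaks in replicate 2 against replicate 1, each as multiples of that replicate's median on log axes, with the strongest peak of each core gene in blue, of each regulatory gene in orange and all promoter peaks in grey. The line marks equal multiples, and all members but pbs-4 and rpn-12 lie on the side where replicate 1 is higher.

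Where the summits lay was compared with other genes. The strongest summit of 17 of the 18 members was upstream of the 5′ end, with pbs-5 the exception, a share of 94.4% against 93.1% of all genes with a summit. The median position was -175 bp in the core, -216 bp in the regulatory particle and -236 bp over all genes with a summit. Apart from pas-1 and rpn-12, every member's strongest summit lay between -342 and 153 bp.

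**Figure D3:**
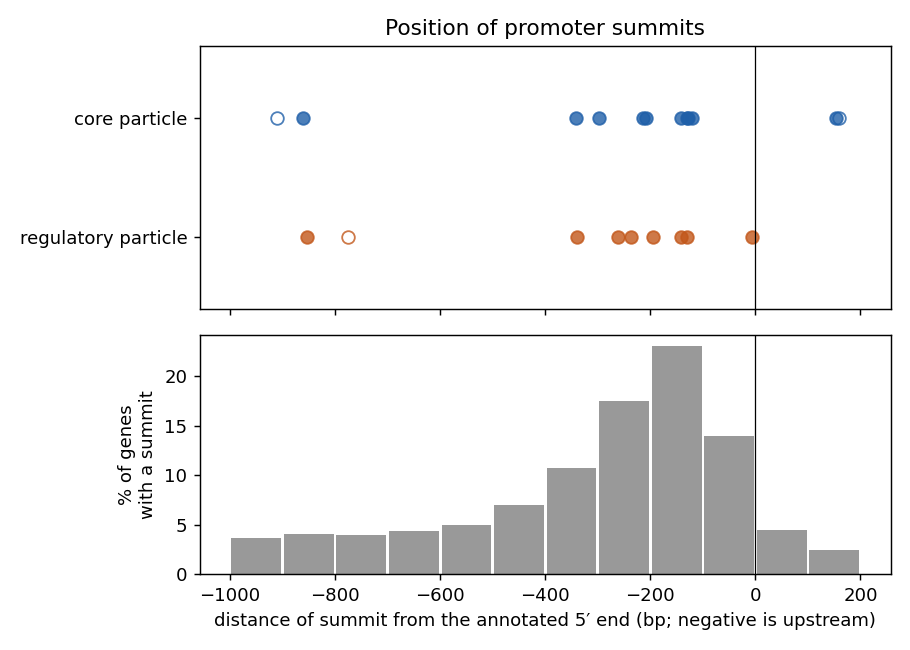
Distance of promoter summits from the annotated 5′ end in bp, with core and regulatory genes above (filled, the strongest summit of a gene; open, a further summit) and the percentage of all genes with a summit per 100 bp below. The strongest summits of 14 members fall between -342 and -120 bp, and the bins from -300 to -100 bp hold the largest shares of all genes.

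Sharing a peak with a divergent gene was about as frequent at members as at all genes with a summit. A peak shared with a gene on the opposite strand was found for 10 of the 18 members (55.6%), against 1259 of the 2636 genes with a summit (47.8%). The partner of rpn-3 was hsp-110, a chaperone gene of the heat shock family, with the summit at -195 bp of rpn-3 and -249 bp of hsp-110. The partner of rpt-2 was the clathrin adaptor gene aps-1, with the summit at -142 bp of rpt-2 and -159 bp of aps-1. This summit lay in the noncoding RNA gene F29G9.10. The translation factor gene eif-6 shared the peak of pbs-2 and was nearer to it, at -324 against -342 bp. The RNA polymerase II subunit gene rpb-3 was the nearer for pas-4, at -135 against -142 bp, and the SNARE gene use-1 for pas-3, at -36 against -120 bp. The pas-4 summit lay in the noncoding RNA gene C36B1.16. The remaining partners were K08D12.3 for pbs-1, F39H11.1 for pbs-7, C23G10.7 for rpn-2, T06D8.9 for rpn-9 and his-72 for the weaker summit of rpt-6.

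With a summit assigned only to its closest gene, the core kept 7 of 14 and the regulatory particle 8 of 19, against 9.95% of all genes. The losses were pas-3, pas-4 and pbs-2. A divergent neighbour within 1000 bp was present for 21 members, of which 10 had a summit (47.6%), against 31.9% of 3592 such genes in all. Of the 12 members without one, 8 had a summit (66.7%), against 9.09% of 16381. Member summits were thus found at divergent promoters and at others.

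Chromosome I differed from the rest for the particles. All 7 core genes on chromosome I had a summit, and none of the 3 regulatory genes there did (rpn-8, rpn-10 and rpt-5). Off chromosome I the core had 3 of 7 and the regulatory particle 8 of 16. The share over all genes was 20.5% on chromosome I and 12% elsewhere. The excess of the core over the regulatory particle was therefore found on chromosome I and not off it, a split that was made after the counts were seen.

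**Figure D4:**
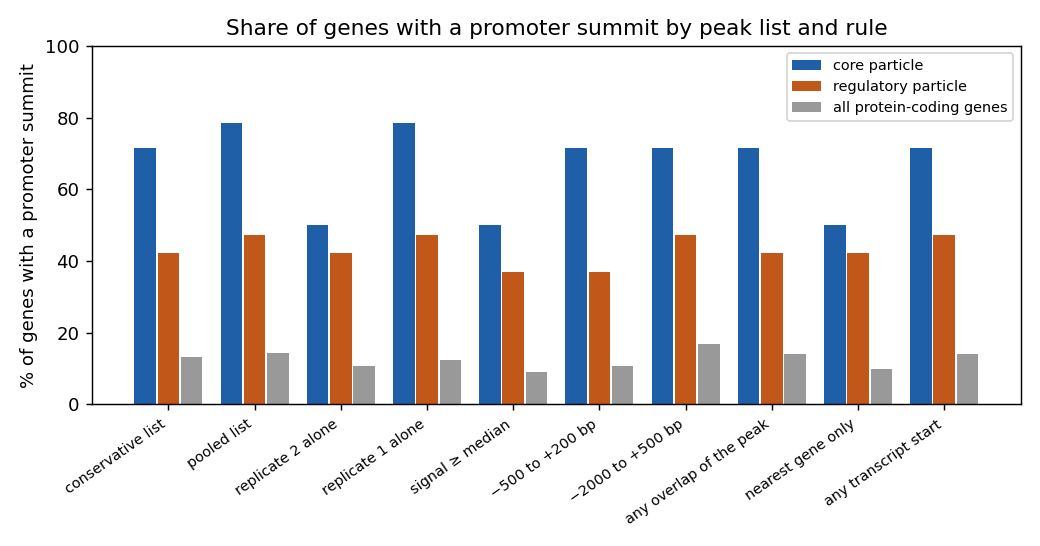
Percentage of genes with a promoter summit for the core particle (blue), the regulatory particle (orange) and all protein-coding genes (grey) under each peak list and counting rule. The core share is above the regulatory share in every setting drawn, least so on the list of replicate 2 alone and with the nearest gene only (50% against 42.1%).

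The 15 members without a promoter summit were 4 core genes (pas-2, pas-6, pas-7 and pbs-6) and 11 regulatory genes. None lacked signal altogether in both replicates. A ranked peak of any strength had its summit in the window of all 33 members in at least 1 replicate, against 50.0% of all genes. In both replicates it did so for 27 members (81.8%), against 31.0% of all genes. Both counts include the 18 members with a promoter summit. Those with a ranked peak in 1 replicate only were pas-2, rpn-6.1, rpn-7, rpt-3, rpt-4 and rpt-5, all without a promoter summit. The share was not taken over all genes without a summit. The lid gene rpn-5 came nearest to the threshold, with an IDR of 0.0157 and multiples of 1.07 and 0.442. It was in the pooled list and in that of replicate 1. The ubiquitin receptor gene rpn-10 had an IDR of 0.0202 and multiples of 0.156 and 0.517.

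For pas-2 the signal was in replicate 1 alone, at 0.971 times the median, with no ranked peak in the window in replicate 2. At pas-6 the multiples were 0.622 and 0.329. Both were in the pooled list and in the list of replicate 1. The lid gene rpn-7 was in the list of replicate 1 alone, at 0.595 times. The other members without a summit had at most 0.549 times the median in either replicate. The lowest was rpn-6.1, which encodes a lid scaffold subunit, with no ranked peak in replicate 1 and 0.122 times in replicate 2. Its paralogue rpn-6.2 gave 0.214 and 0.108 times.

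The ATPase gene rpt-4 was without a summit at its outermost start but had a peak at an inner one. The gene models give it 2 transcripts, starting at 46216 and 43662 on the minus strand of chromosome II. A conservative peak (43704 to 43936) had its summit 165 bp upstream of the inner start, within the first intron of the longer transcript. Its signals were 215 and 124, or 2.46 and 1.86 times the median (2.16 ± 0.425). The divergent gene nfyc-1, which encodes a subunit of the NF-Y transcription factor, starts 80 bp from this summit. With every transcript start counted, the regulatory particle had 9 of 19, against 14.1% of all genes.

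A same-strand gene ended within 500 bp upstream of 8 members, the arrangement found in C. elegans operons, though operons are not annotated in the gene models used. Of these, 4 had a summit of their own (pas-1, pbs-3, pbs-5 and rpn-11), against 11.7% of 3824 such genes in all. The others were rpn-10, rpn-13, rpn-6.2 and rpt-3. The gene before rpn-10, the mitochondrial ribosomal protein gene mrpl-9, had a promoter summit, and the nearest conservative summit to rpn-10 lay at -1409 bp. With a window of 2000 bp upstream to 500 bp downstream, rpn-10 was counted as well, against 17.0% of all genes.

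Peaks also stood just past the ends of proteasome genes and, less often, inside them. A conservative summit lay in the gene beyond 200 bp from its 5′ end, or within 500 bp past its 3′ end, for 13 of the 33 members (39.4%), against 8.60% of all protein-coding genes. These were 5 of 14 core and 8 of 19 regulatory genes. Most of these peaks, including the strongest, lay in the promoter windows of other genes. The peak at the inner start of rpt-4, described above, was counted here as well. The peak 280 bp past the end of pbs-2 was at the tubulin gene tba-2 and gave 7.93 and 6.63 times the median (7.28 ± 0.921). The peak 440 bp past the end of rpt-1 was at the splicing gene snr-4, with 4.77 and 6.11 times (5.44 ± 0.949). The end of pas-5 was followed at 354 bp by a weaker peak at the ribosomal stalk gene rla-0, at 0.658 and 0.530 times (0.594 ± 0.0911). Within the gene bodies, and in no promoter window, lay peaks of rpn-1 at 2221 bp (0.468 and 0.956 times) and of rpn-8 at 597 bp (0.519 and 0.678 times). Neither gene had a promoter summit.

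The letters around the summits were then compared. GTCAT or its complement ATGAC occurred within 50 bases of 7 of the 21 member summits (33.3%), against 219 of the 2102 promoter summits in the conservative list (10.4%). They were 4 of 12 core summits (the summit of pas-1 at 159 bp, pas-3, pbs-1 and pbs-7) and 3 of 9 regulatory summits (rpn-2, rpn-11 and rpt-2). In the sequences printed above the match began 38 bases towards the gene from the summit in pbs-1, 22 in rpt-2 and 31 in rpn-2. Of the 8 matches at member summits, rpn-11 holding 2, all but 1 began downstream of the summit in the direction of transcription of the member. The share on that side was not taken over all promoter summits, so this count has no background. The peaks of pas-3, pbs-1, pbs-7, rpn-2 and rpt-2 were shared with a divergent gene. In the direction of that gene the same matches lay upstream of the summit. The peaks of rpn-3, the strongest of the members, and of rpn-9 held none. The summit at the inner start of rpt-4, which is not among the 21, held a match 35 bases towards the gene.

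ATCAT, the other form of the SKN-1 core, occurred at 4 of 21 member summits (19.0%), against 10.7% of all. In rpt-2 it overlapped the GTCAT match. GAGCG, included because of earlier results of these data, was at 6 of 21 member summits (28.6%), against 36.3% of all. TTTGAA, letters of the cell cycle homology region, was at 3 of 21, against 20.6%, and GGCGGG, letters of the E2F site, at 0 of 21, against 7.75%. TTCGAA was at 1, GCGCGA at 3, GAGAGA at 2 and ACGTG at 2, against 6.38%, 11.2%, 19.0% and 13.5% of all. All were searched on both strands. These matches are descriptions, and with 21 summits each count rests on few sequences. The median GC content of the windows was 45.5% at member summits and 47.5% at all promoter summits.

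Genes that act with the proteasome were described from a list of 28 names, of which 27 were in the gene models and 13 had a promoter summit (48%), against 13.2% of all protein-coding genes. The genes of SKN-1, including its form SKN-1A, and of its regulation had 1 of 7 (14.3%), near that background. The 1 was the SKN-1 inhibitor gene wdr-23, at 0.980 and 0.734 times the median (0.857 ± 0.174). No summit was found at skn-1, at png-1 and ddi-1, whose products process SKN-1A, or at sel-1, sel-9 and sel-11. Partners of the proteasome had 3 of 7 (42.9%). The deubiquitinase genes ubh-4 and usp-14 gave 4.30 and 2.92 times (3.61 ± 0.975), and 1.78 and 1.98 times (1.88 ± 0.143). The adaptor gene ecps-1 gave 14.7 and 7.88 times (11.3 ± 4.82).

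Genes of ubiquitin supply and substrate delivery had 9 of 13 (69.2%). The strongest was cdc-48.1, the gene of the ATPase that extracts ubiquitinated proteins, at 43.6 and 23.7 times the median (33.6 ± 14.1), above every proteasome gene. Its paralogue cdc-48.2 was at 0.965 and 0.627 times (0.796 ± 0.239), with another gene nearer to the summit. The ubiquitin chain elongation gene ufd-2 gave 5.57 and 5.79 times (5.68 ± 0.15). The ubiquitin genes ubq-2 and ubq-1 gave 3.74 and 4.05 times (3.89 ± 0.222), and 0.614 and 1.00 times (0.808 ± 0.275). The gene frg-1 was nearer than ubq-2 to the ubq-2 summit. The ubiquitin activating enzyme gene uba-1 was at 1.02 and 1.04 times (1.03 ± 0.0121). The remainder, ubql-1, aip-1 and ufd-3, lay between 1.47 and 2.50 times. The 4 without a summit were rad-23, ufd-1, npl-4.1 and npl-4.2.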

How the data were processed

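The deposited files were 8 peak lists on ce11: a conservative list, a pooled list and 1 list per replicate, all limited to an IDR of 0.01, and the ranked list behind each, per the deposited description of the files. Peaks were called against a control, which was not analysed here. The signal value per peak is the authors' own, with its scaling not stated. The deposited score, at most 1000, is a transform of the IDR, and the −log10 IDR in the deposited ranked lists is capped at 5. Aligner and peak caller were not given in the sources used here. Summits came from the deposited offset. In the series' ranked lists, 4 further unnamed columns of per-sample values were not used.

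Read counts were not analysed here, so depth is unknown and no counting interval was formed.

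Gene models were those of Ensembl release 115 for WBcel235, the assembly of ce11, and no peak ended beyond its RefSeq chromosomes. Only nuclear chromosomes were used. The 5′ end was the outermost start of the gene, and 1 summit could count for several genes. A gene with several summits was represented by the strongest. No test across genes was made, and members are set beside all genes. The counting script was tested on simulated data. The members and lists were chosen with earlier results of these data known. Every member was to be named, and sequences were those of the 3 strongest peaks per particle off chromosome I. That of pbs-3 is not shown, since its window lies in a UTR. Python 3.11.15, numpy 2.4.6 and matplotlib 3.10.9 were used.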

Additional observations from a re-analysis of the deposited data

How the results depend on the processing

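The counts of 10 core and 8 regulatory genes stayed within 1.5 times under the pooled list (11 and 9), each replicate's own list (7 and 8 without replicate 1, 11 and 9 without replicate 2), peaks at or above the median signal (7 and 7), windows of 500 to 200 bp (10 and 7) and 2000 to 500 bp (10 and 9), any overlap of the peak (10 and 8), the nearest gene alone (7 and 8) and any transcript start (10 and 9). The lists did not hold the same genes: pbs-4 was lost and pas-2, pas-6 and rpn-5 gained on the pooled list. Counting only genes off chromosome I, chosen after seeing the data, gave 3 of 7 core and 8 of 16 regulatory genes. The share of all genes off chromosome I was 12%, and the cause was not tested. The median multiples, 1.16 in the core and 3.15 in the regulatory particle, were 0.975 and 2.75 without replicate 1 and 1.38 and 3.55 without replicate 2, and 1.17 and 3.33 from the conservative list's own signal. With the nearest gene alone they were 1.11 and 3.15. No paired analysis was possible because there is 1 group. The unknown depth limits what a missing peak can show, and 2 replicates limit every SD.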
